A study of Mus musculus with 4 samples.

Results

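Ccl19-positive matrix fibroblasts were compared with matrix fibroblasts of the same sorted library in which no Ccl19 transcript was counted. The cells were cancer-associated fibroblasts (CAF), the stromal cells of a tumor, profiled one by one with the 10x 3′ single-cell assay, which counts each captured transcript once through a molecular tag (UMI). Of 24489 cell barcodes in all, 22691 held 500 to 6000 genes and at most 10% mitochondrial UMIs. Of these, 3584 were taken as matrix fibroblasts, by 0 UMIs of Ptprc (the leukocyte antigen CD45) and of Pax3 (a gene of the melanoma cells), 5000 to 15000 UMIs in all, and UMIs of at least 3 of 10 matrix fibroblast markers (Mfap4, Smim41, Cilp, Lpl, Sfrp1, Svep1, Dpt, Lum, Col15a1 and Postn). The members were chosen by their own measured UMIs of Ccl19, of the markers and of the excluded genes. A cell with at least 2 Ccl19 UMIs was called Ccl19-positive, which 933 cells were. Another 2043 cells with no Ccl19 UMI were called Ccl19-zero, and 608 cells with exactly 1 UMI belonged to neither class.

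All cells came from B16-F1-OVA melanomas, tumors of a mouse skin cancer line carrying ovalbumin, which were grown in the peritoneal cavity of Cxcl13-cre-tdTomato X R26R-eGFPflox mice (host strain label C57Bl/6, age not given in the sources used here) and harvested on day 14. In these mice the Cxcl13 promoter drives both tdTomato and cre, so that tdTomato marks cells in which that promoter is active and eGFP marks cells in which it has been active. CAF that were CD45neg, CD31neg and podoplanin-high were sorted into 4 populations, tdTomato-neg eGFP+, tdTomato+ eGFP-neg, tdTomato+ eGFP+ and tdTomato-neg eGFP-neg, and 1 library was made from each. How many mice or tumors entered a library was not given, and both sexes were used. The libraries held between 10071954 and 90259852 UMIs, and 57 barcodes occurred in more than 1 library, 2 of them within the matrix gate of both.

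CCL19 is a chemokine that binds CCR7 on naive and central memory T cells and on mature dendritic cells. In lymph nodes it is made, together with CCL21, by fibroblastic reticular cells of the T cell zone, while CXCL13 draws B cells into follicles through CXCR5 and CXCL12 acts through CXCR4. Tertiary lymphoid structures, lymphoid aggregates that form in tissues such as tumors, hold the same chemokines, and the question addressed here is what else the matrix fibroblasts that carry Ccl19 transcripts express.

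The upstream sequences of Ccl19 and of 3 genes on which the results turn are shown: Cxcl9 and Cxcl12, chemokine genes that were higher in Ccl19-positive cells, and Inhba, the named gene with the largest fall. Of 5 genes looked up in the RefSeq promoter table (build GRCm38.p6), 4 were found, and Ccl11 is named only. Each sequence is the 250 bases before the annotated transcription start, written 5′ to 3′ along the gene. Capitals mark matches, on either strand, to general NF-kB letters (GGG and CC with any 5 bases between them) or to interferon regulatory factor letters (GAAA and GAAA with any 2 bases between them). In Cxcl9 2 matches to the first overlap by all but their outer bases, and the capitals run over both.
Ccl19 (chr4:42756366-42756615, minus strand): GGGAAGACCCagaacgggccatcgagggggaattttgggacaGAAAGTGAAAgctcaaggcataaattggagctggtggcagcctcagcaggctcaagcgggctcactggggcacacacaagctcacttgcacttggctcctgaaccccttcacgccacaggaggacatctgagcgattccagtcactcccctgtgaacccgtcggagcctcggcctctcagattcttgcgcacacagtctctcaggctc
Cxcl9 (chr5:92328080-92328329, minus strand): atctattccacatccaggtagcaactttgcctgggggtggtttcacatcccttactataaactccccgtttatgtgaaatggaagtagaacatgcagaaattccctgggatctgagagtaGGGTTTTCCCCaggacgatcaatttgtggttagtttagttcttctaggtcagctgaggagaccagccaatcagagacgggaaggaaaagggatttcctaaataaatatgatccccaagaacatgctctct
Cxcl12 (chr6:117168285-117168534, plus strand): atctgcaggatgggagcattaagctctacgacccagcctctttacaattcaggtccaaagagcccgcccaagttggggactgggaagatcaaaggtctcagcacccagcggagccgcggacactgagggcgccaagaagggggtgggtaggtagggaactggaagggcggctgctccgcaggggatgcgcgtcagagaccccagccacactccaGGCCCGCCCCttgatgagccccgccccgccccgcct
Inhba (chr13:16011601-16011850, plus strand): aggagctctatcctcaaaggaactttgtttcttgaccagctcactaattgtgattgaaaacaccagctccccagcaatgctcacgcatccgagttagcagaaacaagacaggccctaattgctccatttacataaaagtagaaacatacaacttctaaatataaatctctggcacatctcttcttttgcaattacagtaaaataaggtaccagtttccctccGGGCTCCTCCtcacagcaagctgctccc
Ccl19 held 1 match to each of these motifs, the latter from 208 to 199 bases before the start. Cxcl9 held 2 overlapping NF-kB matches, Cxcl12 1 and Inhba 1, and these 3 promoters held no match to the interferon regulatory factor letters. None of the 4 held the palindromic letters of the interferon-gamma-activated site (TTC and GAA with any 3 bases between them). Among all 32851 promoter entries of that length in the table, 45.8% held the NF-kB letters, 2.98% the interferon regulatory factor letters and 7.02% those of the interferon-gamma-activated site. The NF-kB letters are thus common in any promoter, and a match is a description of these letters only.

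Ccl19 transcripts were found in matrix fibroblasts of every sorted population. Cells with at least 2 Ccl19 UMIs made up 65 of 374 matrix fibroblasts in the tdTomato-neg eGFP+ library (17.4%, exact Clopper-Pearson 95% interval 13.7 to 21.6%), 195 of 910 in the tdTomato+ eGFP-neg library (21.4%, 18.8 to 24.2%), 18 of 136 in the tdTomato+ eGFP+ library (13.2%, 8.04 to 20.1%) and 655 of 2164 in the tdTomato-neg eGFP-neg library (30.3%, 28.3 to 32.3%). These intervals and all others given here cover counting error only. The double-negative library had the highest share, and its interval did not overlap those of the other 3, which overlapped each other. Among cells with at least 5 markers this order changed, with 36.4% (31.9 to 41.1%) in the tdTomato+ eGFP-neg library and 33.6% (31.4 to 35.9%) in the double-negative one. When every cell was thinned to 5000 UMIs the shares fell to 10.7%, 12.6%, 5.88% and 19.5%, in the same order of libraries. The median UMI count of the gated cells was between 8818 and 10263 in the 4 libraries.

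Ccl19 was found less often in cells outside the matrix gate. Cells of the same depth window that showed none of the 10 markers had at least 2 Ccl19 UMIs in 0.741% of 3911 cells (0.497 to 1.06%) at a median of 8423 UMIs, against 26.0% of matrix fibroblasts (24.6 to 27.5%) at a median of 9193. Cells with a Pax3 UMI, melanoma-type cells that should lack the gene, had them in 2 of 121 cells (1.65%, 0.201 to 5.84%) at a median of 10987 UMIs. These 2 cells were from the double-negative library, which gave 82 of the 121. Cells with a Ptprc UMI had them in 5 of 180 (2.78%, 0.908 to 6.36%). In CPM, UMIs summed over cells and scaled to a common total, Ccl19 stood at 129 in matrix fibroblasts, at 5.37 in cells without a marker and at 8.90 in cells with a Pax3 UMI. Cells without a marker were chosen on the same 10 genes as the gate, so they are not an independent measure of free RNA. The part of free RNA in the Ccl19 counts was not tested.

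**Figure D1:**
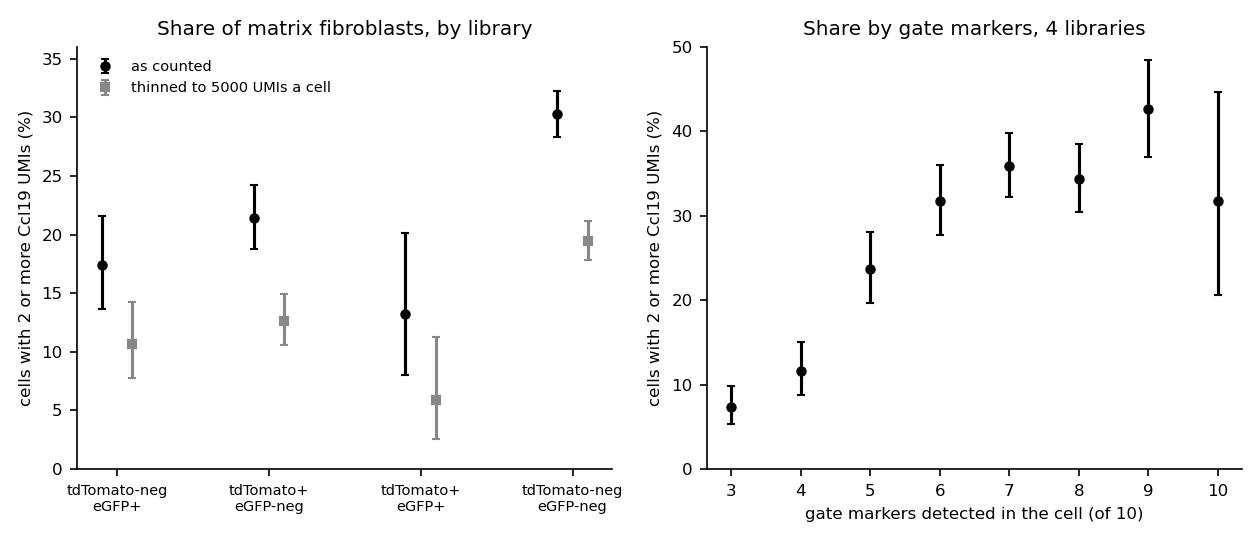
Left, the percent of matrix fibroblasts with 2 or more Ccl19 UMIs in each of the 4 libraries, as counted (circles) and after thinning each cell to 5000 UMIs (squares). Right, the same percent by how many of the 10 gate markers the cell showed. The right panel holds the 3 compared libraries, without tdTomato+ eGFP+, although its title says 4. Bars are exact 95% binomial intervals; the share was highest in the tdTomato-neg eGFP-neg library (30.3%) and was 7.34% in cells with 3 markers and 42.6% in cells with 9.

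The share of Ccl19-positive cells differed with the number of gate markers detected in a cell. The gate used these markers, and the cells were not matched for depth in this count. The part of depth was not tested. The shares by number of markers are those of the 3 libraries compared below, without tdTomato+ eGFP+. The share of Ccl19-positive cells was 7.34% of 545 cells with 3 markers, 11.6% of 430 with 4, 23.7% of 422 with 5, 31.8% of 503 with 6, 36% of 634 with 7, 34.4% of 553 with 8, 42.6% of 298 with 9 and 31.7% of 63 with 10. Ccl19-positive cells showed a median of 7 markers in each compared library, and Ccl19-zero cells a median of 5, 4 and 6 in the tdTomato-neg eGFP+, tdTomato+ eGFP-neg and tdTomato-neg eGFP-neg libraries. Cells with more than 2 UMIs of the mesothelial list, genes of the lining of the peritoneal cavity, made up 15.4%, 16.4% and 19.4% of the Ccl19-positive cells and 27.9%, 33.4% and 26.5% of the Ccl19-zero cells. The 2 classes therefore differ in more than Ccl19, and each comparison below was repeated in cells with at least 5 and with at least 7 of the 10 markers.

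Expression was compared in the 3 libraries that held at least 50 cells of each class, 915 Ccl19-positive and 1946 Ccl19-zero cells in all. UMIs were summed per library and class, and the difference within libraries was tested with edgeR's quasi-likelihood test. From here on, sets of 3 values are CPM in the tdTomato-neg eGFP+, tdTomato+ eGFP-neg and tdTomato-neg eGFP-neg libraries, in that order, and a log2 difference is Ccl19-positive minus Ccl19-zero with its standard error. These libraries are different sorted populations that may share tumors, so the test measures how even a difference is across them and not the spread between animals. The tdTomato+ eGFP+ library held only 18 Ccl19-positive cells and was left out of the test.

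Of 11442 genes tested, 437 were higher in Ccl19-positive cells (3.82%) and 365 were lower (3.19%) at an adjusted p below 0.05. Among cells with at least 5 markers, 414 of 9522 genes were higher (4.35%) and 270 lower (2.84%), and among those with at least 7 markers 276 of 8011 were higher (3.45%) and 142 lower (1.77%). Without the tdTomato+ eGFP-neg library the counts were 204 and 156. The share of cells with Xist UMIs but no Y-linked UMIs (Xist-only cells), among these and cells with the reverse (Y-only cells), was 55.8%, 62.9% and 72.5% in Ccl19-positive cells and 40.7%, 57.2% and 43.5% in Ccl19-zero cells. Such cells made up more of the Ccl19-positive class in these 3 libraries, though not in the tdTomato+ eGFP+ library (30.8% against 47.6%), and within them alone 208 genes were higher and 197 lower.

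Ccl19 itself stood at 380, 391 and 459 CPM in the positive cells, with a median of 3 UMIs a cell, which is what the choice of cells fixed. The pseudogene Ccl19-ps2, a near-identical copy that can share reads with Ccl19, stood at 225, 251 and 248 CPM in positive cells and at 15.0, 15.7 and 24.1 CPM in zero cells. It had 6175 UMIs over all barcodes beside 8623 of Ccl19, and its difference cannot be told apart from that of the gating gene. Of the 10 gate markers, for which no test is given because they chose the cells, 9 had a fitted log2 difference above 0. Among them was Lpl (lipoprotein lipase), at 760, 746 and 881 CPM against 217, 197 and 326.

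Among chemokines of lymphoid tissue, Cxcl12 was raised together with Ccl19 and Ccl21 was close to absent. Cxcl12, which encodes the CXCR4 ligand that retains lymphocytes and plasma cells in stromal niches, stood at 1669, 2322 and 1833 CPM in Ccl19-positive cells and at 584, 968 and 610 CPM in Ccl19-zero cells. The library sums of the classes did not overlap, and the difference was 2.79-fold (log2 difference 1.48 ± 0.08, edgeR adjusted p = 1.2e-05). It was smaller, though still called, at 5 markers (1.24 ± 0.09) and at 7 (1.09 ± 0.09). In the tdTomato+ eGFP+ library Cxcl12 stood at 2029 against 807 CPM. At least 1 Cxcl12 UMI was found in 93.6% of the 933 positive cells (median 8951 UMIs) and in 74.5% of the 2043 zero cells (median 9362 UMIs), against 22.3% of the 121 cells with a Pax3 UMI, and after thinning to 5000 UMIs in 88.5%, 65.1% and 14.9%. Ccl21a, the other CCR7 ligand gene, had 3 UMIs in all gated cells, and its copies Ccl21b and Ccl21d had none in any barcode, so that no difference in Ccl21 was detectable at this depth. Genes with near-identical copies such as Ccl21 can lose reads in counting.

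Cxcl13, the CXCR5 ligand gene whose promoter drives the reporters, did not differ evenly across the sorted populations. It stood at 110, 3555 and 325 CPM in Ccl19-positive cells and at 198, 1779 and 62.2 CPM in Ccl19-zero cells. It was thus higher in Ccl19-positive cells of the tdTomato+ eGFP-neg and double-negative libraries and lower in those of the tdTomato-neg eGFP+ library, and did not pass the test (log2 difference 1.03 ± 0.43, edgeR adjusted p = 0.24). In the untested tdTomato+ eGFP+ library it stood at 2319 against 485 CPM. Among cells with at least 5 markers the log2 difference was 1.66 ± 0.20 (edgeR adjusted p = 0.00012), and without the tdTomato-neg eGFP+ library it was 1.68 (edgeR adjusted p = 0.0147). The lower value in the tdTomato-neg eGFP+ library rests on 69 UMIs in 6 of 65 positive cells, and in that library cells with 3 to 4 Ccl19 UMIs stood at 235 CPM, so that no direction can be read there. Cxcl13 UMIs were found in 9.23%, 68.7% and 28.4% of Ccl19-positive cells and in 17.4%, 64.7% and 9.86% of Ccl19-zero cells. The share of cells with a Pax3 UMI that held one was 4.35%, 41.7% and 8.54% of 23, 12 and 82 cells, so that the level in Ccl19-zero cells of the double-negative library was close to that background. Most Ccl19-positive cells of the double-negative and eGFP-only populations therefore had no Cxcl13 UMI. Cxcl16 did not pass the test (0.04 ± 0.10) but did among cells with at least 7 markers (0.53 ± 0.12, edgeR adjusted p = 0.012).

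**Figure D2:**
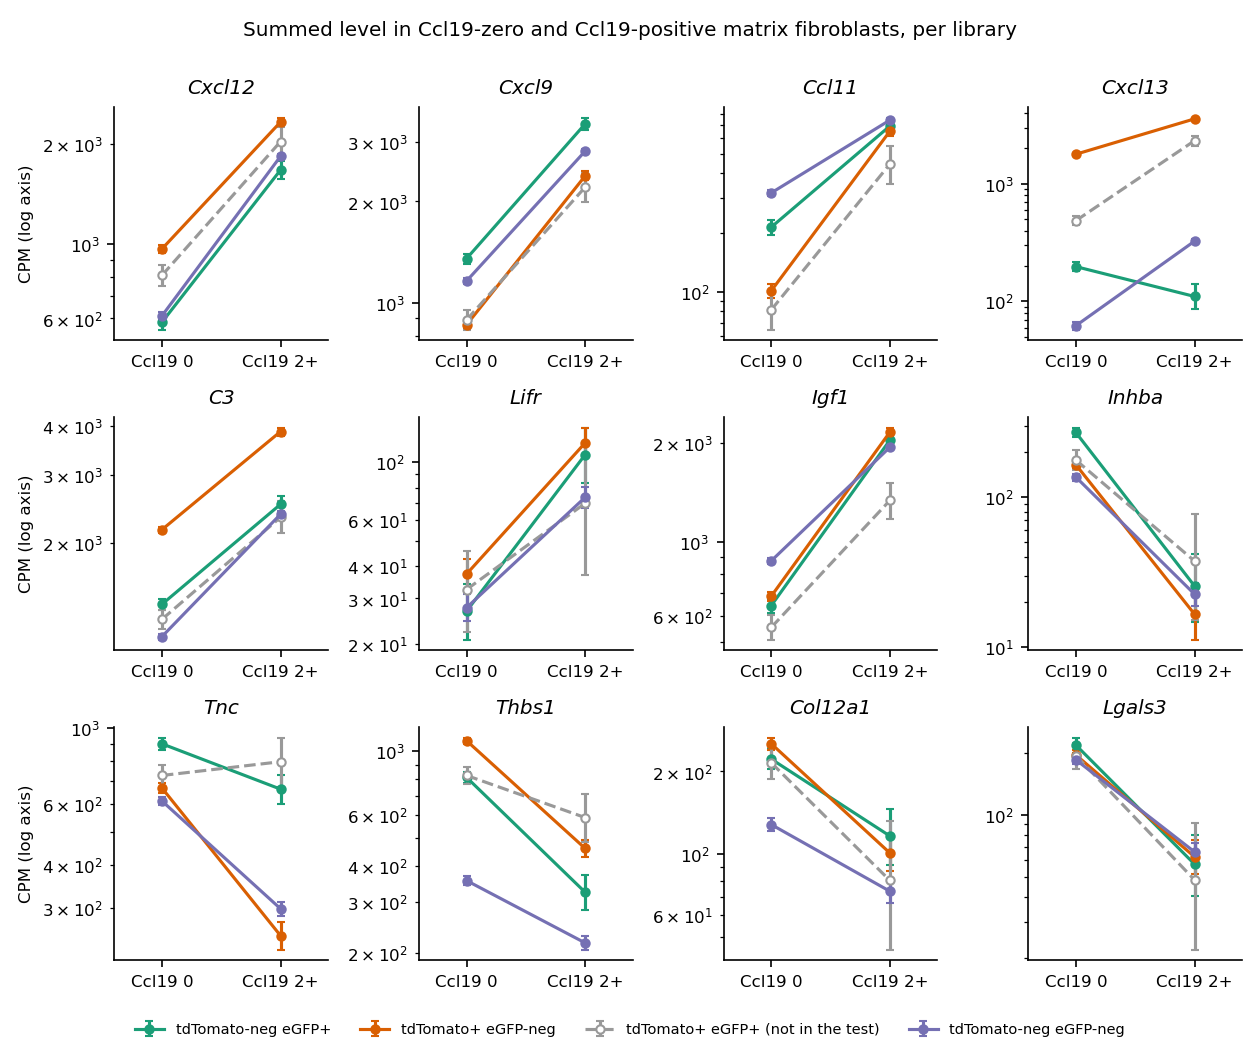
Summed CPM (log axes) of 12 genes in Ccl19-zero and Ccl19-positive matrix fibroblasts, with 1 line per library and bars for the exact 95% Poisson interval of the count; the grey dashed line is the tdTomato+ eGFP+ library, which was not in the test. Cxcl12, Cxcl9, Ccl11, C3, Lifr and Igf1 were higher in the positive cells of every library, Inhba, Thbs1, Col12a1 and Lgals3 lower, Cxcl13 was lower in the tdTomato-neg eGFP+ library alone, and Tnc was lower in the 3 tested libraries.

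Other chemokine genes differed as well. Cxcl9, an interferon-gamma-induced ligand of CXCR3 on effector T cells, stood at 3398, 2383 and 2821 CPM in Ccl19-positive cells and at 1354, 862 and 1162 CPM in Ccl19-zero cells. It was 2.61-fold higher, with no overlap between the library sums of the classes (log2 difference 1.38 ± 0.06, edgeR adjusted p = 4.4e-06). The difference was smaller at 5 markers (0.93 ± 0.07) and at 7 (1.01 ± 0.07), and called at both. Cxcl9 UMIs were found in 84.5% of positive and 63.7% of zero cells, against 26.4% of cells with a Pax3 UMI. Cxcl10, a second CXCR3 ligand gene, stood at 963, 1166 and 895 against 812, 1226 and 635 CPM. It missed the threshold (0.25 ± 0.10, edgeR adjusted p = 0.22) and passed it among cells with at least 5 markers (0.55 ± 0.08, edgeR adjusted p = 0.0011). Cxcl11 was at or below 1.99 CPM in every sum of the compared libraries.

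Of 11 chemokine and growth factor genes that act on myeloid cells, 4 were higher in Ccl19-positive cells and none was lower. Of all genes tested 3.82% were higher and 3.19% lower. The median log2 difference of the list was 0.29 beside -0.0030 over all genes tested. Ccl11, which encodes the eosinophil attractant eotaxin, stood at 693, 652 and 742 CPM against 213, 101 and 318 CPM and was 3.69-fold higher (log2 difference 1.88 ± 0.22, edgeR adjusted p = 0.0014). It was found in 86.3% of positive and 48.7% of zero cells, against 17.4% of cells with a Pax3 UMI. The log2 difference of Ccl11 fell to 1.28 ± 0.10 at 5 markers and 1.09 ± 0.08 at 7, and was called at both. Ccl7, a monocyte attractant, stood at 1790, 1953 and 1973 against 1077, 1394 and 1266 CPM (0.64 ± 0.07, edgeR adjusted p = 0.00067). Ccl2 and Ccl8 differed less (0.24 ± 0.05 and 0.57 ± 0.13). The call of Ccl2 was lost without the tdTomato-neg eGFP+ library (0.18) or the tdTomato+ eGFP-neg library (0.29), and that of Ccl8 without any 1 of the 3 (0.55, 0.56 and 0.64) and at 7 markers (0.40). The neutrophil attractant gene Cxcl1 stood at 982, 1351 and 1663 CPM against 1169, 1216 and 1568 and did not pass the test.

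Genes of the alternative and classical complement pathways were higher in Ccl19-positive cells. Of 8 tested complement genes, 7 were higher and none lower at the main gate, all 8 were higher among cells with at least 5 and with at least 7 markers, and the median log2 difference was 0.59, 0.68 and 0.57. Of all genes tested 3.82%, 4.35% and 3.45% were higher at these gates. C3, the central component, stood at 2521, 3879 and 2377 CPM against 1394, 2168 and 1150 CPM, 1.92-fold higher (0.94 ± 0.06, edgeR adjusted p = 4.9e-05). C4b was higher by 1.05 ± 0.11 on the log2 scale. Serping1, which encodes the C1 inhibitor, stood at 2729, 2611 and 2017 against 1694, 1842 and 1360 CPM (0.61 ± 0.06, edgeR adjusted p = 0.00045). C1s1 and C2 (0.43 ± 0.10 and 0.47 ± 0.12) lost their calls without any 1 library, at 0.34 to 0.52 and 0.30 to 0.58. Among cells with Y-linked but no Xist UMIs, which were 19, 49 and 107 positive cells, the difference of C3 was 0.40 (edgeR adjusted p = 0.20).

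Of 17 tested cytokine receptor genes 5 were higher, beside 3.82% of all genes tested, and none was lower. Lifr, the receptor of leukemia inhibitory factor, stood at 107, 119 and 73.4 CPM against 26.8, 37.2 and 27.7 CPM, 3.15-fold higher (1.65 ± 0.13, edgeR adjusted p = 0.00016). At 5 and 7 markers Lifr differed by 1.32 ± 0.12 and 1.15 ± 0.13. Il6st, which encodes the shared signaling chain gp130, stood at 158, 214 and 149 against 112, 141 and 99.4 CPM (0.59 ± 0.09, edgeR adjusted p = 0.0051). Osmr, the oncostatin M receptor gene, did not pass the test (0.25 ± 0.11, edgeR adjusted p = 0.27). The others that were higher were the decoy receptor gene Il1r2 (0.88 ± 0.14), Il15ra (0.62 ± 0.13) and Ifngr1 (0.51 ± 0.12). The calls of Il15ra and Ifngr1 were lost without the tdTomato+ eGFP-neg library (0.55 and 0.44) and that of Ifngr1 also without the tdTomato-neg eGFP+ library (0.47). At 7 markers neither was called (0.39 and 0.23), nor was Ifngr1 at 5 markers (0.39).

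Of 15 tested genes typical of lymph node reticular cells, 3 were higher and 1 was lower, with 11 differences above 0 (median 0.21). Of 13 tested at 5 markers 5 were higher and 1 lower, and of 11 at 7 markers 3 were higher and none lower (median 0.43). Beside these counts, 3.82%, 4.35% and 3.45% of all genes tested were higher at 3, 5 and 7 markers. Tnfsf13b, which encodes the B cell survival factor BAFF, stood at 35.1, 26.5 and 23.9 CPM against 14.6, 11 and 11.8 CPM (1.17 ± 0.16, edgeR adjusted p = 0.0030). Its call was lost at 7 markers (0.66), in Xist-only cells (0.80) and in Y-only cells (1.09). Il6 stood at 235, 349 and 269 against 183, 248 and 184 CPM (0.50 ± 0.09, edgeR adjusted p = 0.0098), a call that was lost without the tdTomato+ eGFP-neg library (0.49) and among cells with at least 5 markers (0.31). Icam1 was higher by 0.42 ± 0.11, a call lost without any 1 library (0.36 to 0.47) and at 7 markers (0.45). Pdpn, the gene of the podoplanin on which all cells were sorted, was lower, at 76.6, 152 and 113 CPM against 199, 244 and 161 CPM (-0.75 ± 0.14, edgeR adjusted p = 0.013). The difference of Pdpn was -0.41 ± 0.11 at 5 markers and -0.37 ± 0.11 at 7, where it was not called (edgeR adjusted p = 0.077), nor was it in Y-only cells (-0.80). Il33 and Vcam1 missed the threshold at the main gate (0.46 ± 0.14 and 0.10 ± 0.10) and passed it among cells with at least 5 markers (0.65 ± 0.10 and 0.38 ± 0.10). Il7 stood at or below 5.92 CPM in every sum of the compared libraries, and Madcam1 had no UMI.

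The receptors and transducers through which lymphotoxin and TNF act did not differ as a list. Of 16 tested genes only Tnfrsf1a, the TNF receptor gene, was higher (0.46 ± 0.10, edgeR adjusted p = 0.020), beside 3.82% of all genes tested. Tnfrsf1a lost the call without any 1 of the libraries (0.41 to 0.49) and at 7 markers (0.36). Ltbr, the lymphotoxin beta receptor gene, stood at 41.5, 45.9 and 31.3 CPM against 43.8, 37.1 and 31.9 CPM (0.10 ± 0.13, edgeR adjusted p = 0.80), and the median of the list was 0.04.

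Calls of interferon-induced and antigen presentation genes depended on how many gate markers the cells of both classes had to show. At the main gate 3 of 20 interferon-induced genes were higher in Ccl19-positive cells, Ifitm3 (0.31 ± 0.04), Socs1 (0.65 ± 0.12) and Irf8 (0.73 ± 0.17), with a list median of 0.08. Irf8 and Socs1 lost their calls without the double-negative library (0.43 and 0.55), Irf8 also without the tdTomato-neg eGFP+ library (0.80) and Socs1 without the tdTomato+ eGFP-neg library (0.61). Among cells with at least 5 markers 7 were higher, and among those with at least 7 markers 13 were, with medians of 0.27 and 0.50. Of all genes tested 3.82% were higher at the main gate, 4.35% at 5 markers and 3.45% at 7. Igtp, an interferon-induced GTPase gene, went from -0.09 ± 0.13 at the main gate to 0.70 ± 0.11 at 7 markers (edgeR adjusted p = 0.00069).

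The same was seen for antigen presentation. Of 14 tested MHC class I presentation genes, none was called at the main gate, 6 were higher among cells with at least 5 markers and 10 among cells with at least 7, with medians of 0.14, 0.28 and 0.43. B2m, the light chain gene, stood at 3912, 4364 and 2600 CPM against 3588, 4690 and 2097 CPM at the main gate (0.14 ± 0.07) and differed by 0.45 ± 0.06 at 7 markers (edgeR adjusted p = 0.00019). Of 8 MHC class II presentation genes none was called at the main gate, where the median was -0.11, while 3 of 8 were higher at 5 markers (median 0.33) and 4 of 7 at 7 markers (median 0.64). Cd74, the invariant chain gene, went from -0.37 ± 0.10 to 0.64 ± 0.13 (edgeR adjusted p = 0.0051 at 7 markers). Beside these counts, 3.45% of all genes tested were called higher at 7 markers and 4.35% at 5.

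**Figure D3:**
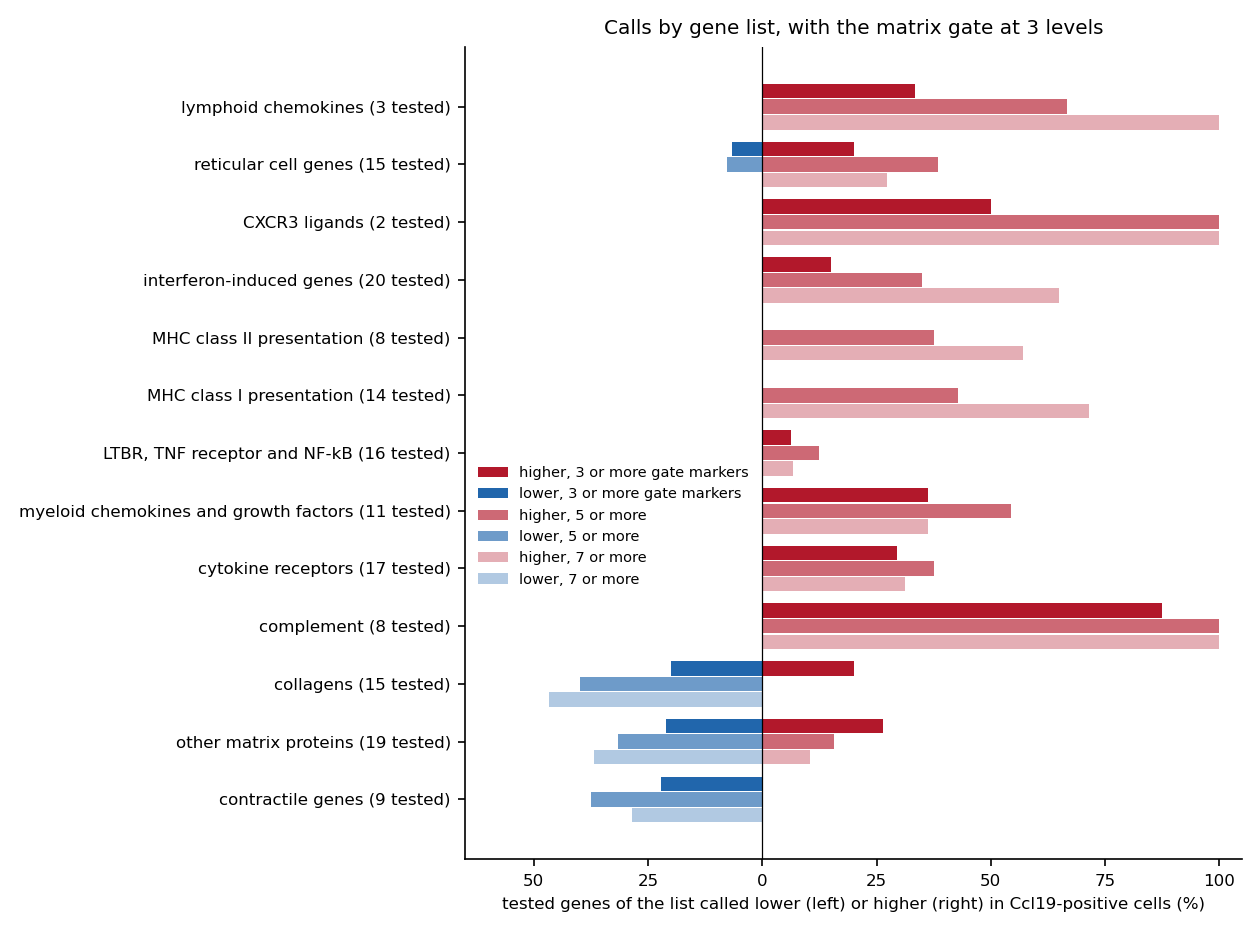
Percent of the tested genes of 13 lists that were called higher (red, to the right) or lower (blue, to the left) in Ccl19-positive matrix fibroblasts, with cells holding at least 3 (dark), 5 (middle) or 7 (pale) of the 10 gate markers; the number tested at the main gate stands beside each name. Interferon-induced and both antigen presentation lists gained calls as the gate was tightened, the complement list went from 7 to 8 of 8, and the collagen list lost its higher calls and went from 3 to 7 lower calls.

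Structural matrix genes moved in both directions. Of 15 collagen chain genes, 3 were higher and 3 lower at the main gate (median -0.11), none higher and 6 lower at 5 markers (median -0.32), and none higher and 7 lower at 7 markers (median -0.30). Of all genes tested 3.19%, 2.84% and 1.77% were lower at these gates, and 3.82% were higher at the main gate. Col12a1, which encodes a fibril-associated collagen, stood at 117, 101 and 73.4 CPM against 222, 252 and 128 CPM (-0.99 ± 0.12, edgeR adjusted p = 0.0017), and at 7 markers the difference was -0.71 ± 0.11. Col1a1, the main chain of type I collagen, stood at 8318, 5983 and 4633 against 9392, 9007 and 5806 CPM (-0.34 ± 0.07, edgeR adjusted p = 0.016), a call lost without the tdTomato+ eGFP-neg library (-0.22). Col5a3 was lower by 0.42 on the log2 scale, a difference that lost its call without the tdTomato+ eGFP-neg (-0.31) or the double-negative library (-0.41). The basement membrane chains Col4a1 and Col4a2 were higher at the main gate (0.61 ± 0.07 and 0.53 ± 0.09) and not called at 5 markers (0.26 and 0.17). Col3a1 was called higher at the main gate (0.20 ± 0.03) but not without the tdTomato-neg eGFP+ library (0.17), and had the opposite sign at 5 and 7 markers (-0.01 and -0.11).

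The list of 19 other matrix genes also moved in both directions, with 5 higher and 4 lower (median 0.12). Of all genes tested 3.82% were higher and 3.19% lower. Thbs1, the thrombospondin-1 gene, stood at 324, 460 and 216 CPM in Ccl19-positive cells against 813, 1090 and 356 CPM in Ccl19-zero cells, 2.09-fold lower (-1.06 ± 0.12, edgeR adjusted p = 0.00092). Tnc, the tenascin-C gene, stood at 664, 250 and 299 against 899, 670 and 614 CPM (-0.95 ± 0.15, edgeR adjusted p = 0.0059), and at 798 against 728 CPM in the untested tdTomato+ eGFP+ library. Among cells with Y-linked but no Xist UMIs the difference of Tnc was -0.26 (edgeR adjusted p = 0.73). Thbs2 was lower by 0.76 on the log2 scale, with its call lost without the double-negative library (-0.66), and Fn1, the fibronectin gene, by 0.34, with its call lost without the tdTomato-neg eGFP+ (-0.36) or the tdTomato+ eGFP-neg library (-0.22) and at 5 markers (-0.27). Sparc, another secreted matrix protein gene of the list, did not pass the test (0.07 ± 0.06). The higher ones included the decorin gene Dcn (0.34 ± 0.05) and Mmp3, a matrix metalloproteinase gene that stood at 295, 238 and 115 CPM against 55.2, 167 and 51.4 CPM (1.29 ± 0.27, edgeR adjusted p = 0.020). The call of Mmp3 was lost when all 4 libraries were fitted (0.98 ± 0.33, edgeR adjusted p = 0.097) and kept at 7 markers (1.08 ± 0.22). Fbln1, Tnfaip6 and Mmp2, the other 3, were no longer called at 7 markers (0.24, 0.12 and 0.10) or without the tdTomato+ eGFP-neg library (0.49, 0.41 and 0.49), and Mmp2 also not without the tdTomato-neg eGFP+ library (0.89).

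Of 9 tested contractile genes, typical of myofibroblasts, none was higher and 2 were lower, beside 3.19% of all genes tested, the tropomyosin genes Tpm1 (-0.50 ± 0.11) and Tpm2 (-0.60 ± 0.11). Both calls were lost without the tdTomato+ eGFP-neg library, at -0.50 and -0.50. The list summed to 3514, 1835 and 1731 CPM against 3452, 2374 and 3153 CPM. In the untested tdTomato+ eGFP+ library its sum went the other way, at 4455 against 2923 CPM. Acta2, the smooth muscle actin gene, stood at 1107, 543 and 625 CPM against 1216, 743 and 1209 CPM (-0.49 ± 0.13, edgeR adjusted p = 0.053) and was lower among cells with at least 5 markers (-0.67 ± 0.11, edgeR adjusted p = 0.0018).

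The 10 genes with the largest rise were Ccl19-ps2, Ntrk2, Serpina1b, Fxyd6, Srgn, Parm1, Mcoln2, Gm13889, Ptx3 and Plcb1. Srgn, which encodes the proteoglycan core protein serglycin, stood at 65.5, 199 and 158 CPM against 31.2, 30.3 and 28.5 CPM and was 4.98-fold higher (2.32 ± 0.23, edgeR adjusted p = 0.00052). Ntrk2, which encodes the neurotrophin receptor TrkB, stood at 19.2, 38.7 and 38.4 against 1.97, 3.89 and 9.45 CPM (2.54 ± 0.26, edgeR adjusted p = 0.00068). Ptx3, the gene of the soluble pattern recognition protein pentraxin 3, stood at 490, 937 and 690 against 159, 149 and 253 CPM (1.94 ± 0.20, edgeR adjusted p = 0.00067). Serpina1b, a serine protease inhibitor gene with near-identical copies among which reads can be split, rose by 2.44 ± 0.36. At 7 markers Srgn still differed by 2.07, Ntrk2 by 1.56 and Ptx3 by 0.71, all called, while Mcoln2 was not called (0.97 ± 0.29).

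Among the 10 genes with the largest fall were Inhba, Hmga2, Crabp2, Ctla2a, Slpi, Sema3a, Sorbs2, Krt19 and Areg. Inhba, which encodes the activin A subunit, a ligand of the TGF-beta family, stood at 25.5, 16.6 and 22.5 CPM in Ccl19-positive cells against 270, 164 and 136 CPM in Ccl19-zero cells. It was 7.62-fold lower (-2.93 ± 0.16, edgeR adjusted p = 1.8e-05), with -2.15 ± 0.23 at 7 markers and 37.5 against 177 CPM in the tdTomato+ eGFP+ library. Inhba UMIs were found in 8.79% of positive and 30.2% of zero cells, against 4.96% of cells with a Pax3 UMI. Crabp2, the cellular retinoic acid binding protein gene, stood at 3.19, 13.8 and 10.6 against 71.8, 80.4 and 39.3 CPM (-2.31 ± 0.24, edgeR adjusted p = 0.00068). Slpi, a secreted protease inhibitor gene, stood at 60.7, 61.9 and 232 against 502, 390 and 598 CPM (-2.18 ± 0.26, edgeR adjusted p = 0.0014). At 7 markers Crabp2 differed by -2.58, while Slpi (-0.58), Ctla2a (-0.95), Sorbs2 (-0.60) and Areg (-1.22) were not called, and Hmga2, Sema3a and Krt19 fell below the count filter. Sorbs2 was not called without the tdTomato-neg eGFP+ (-2.02) or the tdTomato+ eGFP-neg library (-1.28).

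Levels were also taken by the number of Ccl19 UMIs in a cell. Just outside and just inside it, Cxcl12 averaged 1494 CPM over the 3 libraries both in cells with 1 and in cells with 2 Ccl19 UMIs, against 721 CPM in cells with none and 2323 CPM in cells with 5 or more. Ccl11 averaged 211, 465, 550, 731 and 827 CPM in cells with 0, 1, 2, 3 to 4, and 5 or more Ccl19 UMIs. Inhba averaged 190, 88.7, 36.2, 17.5 and 7.87 CPM over the same steps. These averages are a description, since each step holds few cells of the smallest library, 26 with 2 UMIs and 14 with 5 or more. Cxcl9 averaged 2793 CPM at 2 UMIs and 2587 CPM at 3 to 4. In the double-negative library it rose at every step, at 1162, 1907, 2249, 2516 and 3654 CPM. In the tdTomato+ eGFP-neg library it went from 2256 CPM at 2 UMIs to 2083 at 3 to 4 and 3080 at 5 or more. Its level in the tdTomato-neg eGFP+ library was highest at 2 UMIs. Cxcl12 also fell in that library, from 1324 CPM at 1 UMI to 1168 at 2. Srgn averaged 93.3 CPM at 1 UMI and 87.0 CPM at 2.

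**Figure D4:**
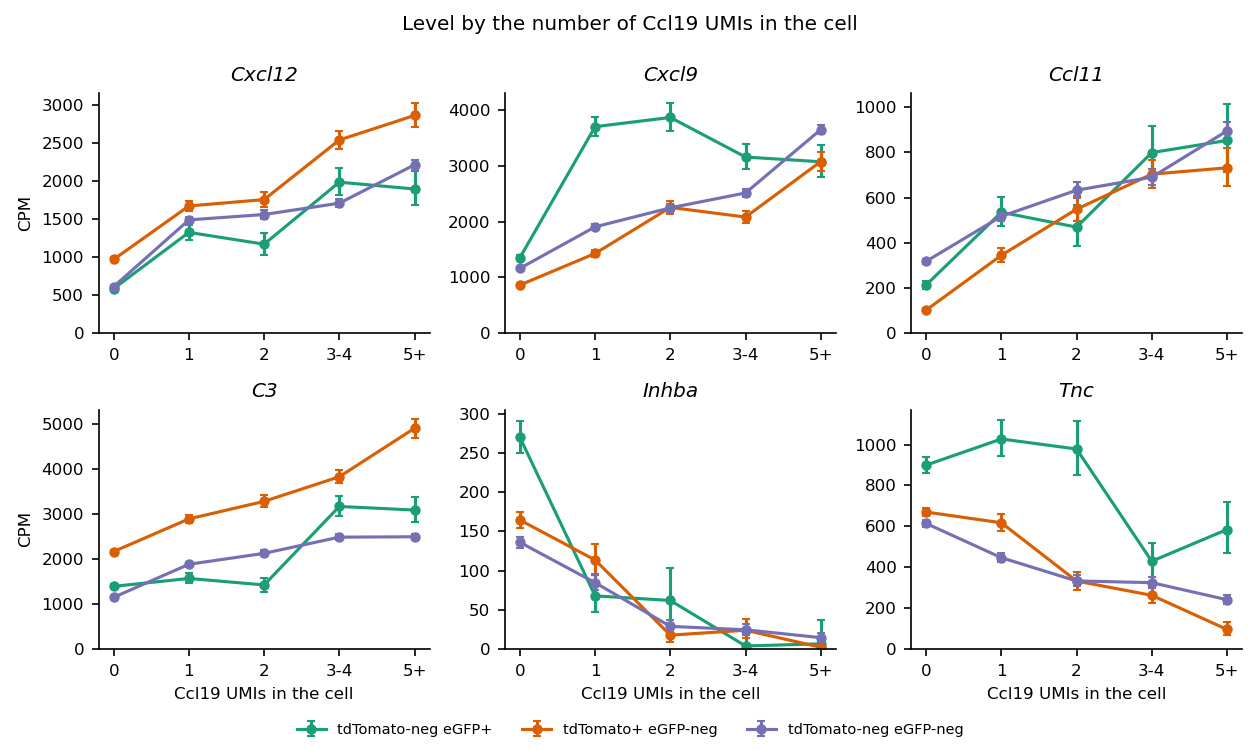
Summed CPM of 6 genes in matrix fibroblasts by the number of Ccl19 UMIs in the cell, with 1 line per compared library and bars for the exact 95% Poisson interval of the count. Cxcl12 and Ccl11 were lowest at 0 UMIs in each library and averaged 2323 and 827 CPM at 5 or more, Inhba was highest at 0 UMIs (average 190 CPM), and Cxcl9 in the tdTomato-neg eGFP+ library was highest at 2 UMIs.

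Markers of other cells were measured in the same sums. Of 11 tested mesothelial genes 9 were lower in Ccl19-positive cells and none higher, and the 12 listed genes summed to 141, 143 and 224 CPM against 295, 265 and 454 CPM. Of all genes tested at the main gate 3.19% were lower. At 5 markers none of 9 was called (median -0.16). Among cells with at most 2 mesothelial UMIs, 332 genes were higher and 224 lower, and the differences of Cxcl12, Cxcl9, Ccl11 and Inhba were still called. Of 9 hypoxia genes 5 were lower, beside the same 3.19% of all genes, among them Pgk1 (-0.71 ± 0.10) and Egln3 (-1.65 ± 0.26). At 7 markers none of 7 was lower and Adm was higher (0.99 ± 0.19).

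Of 12 immune cell genes 4 were tested and 1, Tyrobp, was higher (1.03 ± 0.24), at 1.60, 14.9 and 10.8 against 1.18, 7.95 and 4.97 CPM, and among cells with at least 5 markers 3 of 4 were, Tyrobp (1.67 ± 0.35), Fcer1g (1.51 ± 0.27) and C1qa (1.00 ± 0.28). These gained calls at the gate where interferon-induced and antigen presentation genes also did, and their part in that was not tested. Of all genes tested 3.82% were higher at the main gate and 4.35% at 5 markers. At the main gate the list summed to 9.58, 74.6 and 45.7 against 16.2, 47.4 and 34.4 CPM. Of the mature dendritic cell genes, which could bring Ccl19 of their own, Ccr7 stood at 0, 0 and 0.166 CPM in positive cells and Flt3 and Ccl22 had no UMI in either class. The other genes of this list were not at 0, and all 7 summed to 148, 166 and 176 CPM in positive cells. In zero cells they summed to 220, 199 and 211 CPM, and none of 3 tested was called. The 6 melanoma genes summed to 12.8, 7.73 and 172 CPM against 18.1, 15.4 and 152 CPM and none of 3 tested was called. Of the 9 endothelial genes Pecam1 stood at or below 2.69 CPM in all sums and Plvap, alone of the 3 tested, was higher (1.02 ± 0.23). The endothelial list summed to 95.8, 63.5 and 51.9 CPM against 30.0, 50.3 and 37.0 CPM. Of 8 pericyte genes Notch3, alone of the 4 tested, was higher (1.16 ± 0.17, not called at 7 markers), with Rgs5 at 0, 3.87 and 1.16 CPM in positive cells. The pericyte list summed to 225, 159 and 126 CPM against 179, 122 and 95.3 CPM. Both sums were thus higher in positive cells of each compared library. Of 8 universal fibroblast genes, Ly6a and Ly6c1 were higher (0.87 ± 0.07 and 1.5 ± 0.19) and Cd55 was lower (-0.56 ± 0.14, not called at 5 or 7 markers). At 5 markers 4 of 7 were higher, with Pi16 (0.71 ± 0.17) and Cd34 (0.65 ± 0.15) added, and at 7 markers 2 of 7 were. Anxa3 was lower at 5 (-0.73 ± 0.13) and 7 markers (-0.93 ± 0.14). At the main gate this list summed to 3388, 4146 and 4461 CPM in positive cells against 1775, 2216 and 3037 CPM. Of 6 cell cycle genes 1 was lower, of 8 stress and immediate early genes none was called, and of 4 Y-linked genes none was. At 5 markers 2 of 3 Y-linked genes were lower, Ddx3y (-0.79 ± 0.14) and Uty (-0.83 ± 0.23), and Xist was higher (0.72 ± 0.13), and the part of the mix of male and female cells in the other differences was not tested beyond the counts in Xist-only and Y-only cells. The part of these cells and genes in the differences above was not tested beyond the repeats given.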

How the data were processed

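The 4 single-cell libraries were deposited as UMI counts per gene and barcode. Per the file headers the matrices came from Cell Ranger 8.0.0, whereas the submitters' processing notes name Cell Ranger 10.0.0, STAR, Seurat 5.0 and the build GRCm39. The authors' limits on genes per cell (500 and 6000) and mitochondrial share (10%) were applied again here. The members and gene lists were chosen with earlier results of these data known. Cells were gated as described in the report, and raw counts were summed per library and Ccl19 class. Each sum held 626269 to 10054173 UMIs. Genes passing filterByExpr were tested with edgeR 4.0.16 (R 4.3.3; TMM, quasi-likelihood test, design of library plus class, two-sided, Benjamini-Hochberg adjusted p below 0.05 over all genes tested). Genes named in the text are those of the lists fixed for this comparison and the 10 largest and 10 smallest log2 differences among called genes with 1 sign in the 3 libraries, no part in the gate and at least 20 CPM in the higher class. A few genes that this rule covers are not reported here. Genes in the closing observations were chosen after their values were seen. On simulated counts with the same depths (11427 genes), 50 of 50 genes changed 4-fold, 41 of 50 changed 2-fold, 10 of 50 changed 1.5-fold and 30 of 50 changed 0.5-fold were called, and 0.0891% of unchanged genes. The simulation gave every gene the same preset dispersion, which was not estimated from these data. Scrublet (scanpy 1.11.5) scores marked doublets at the expected rate per library, 0.8% per 1000 barcodes, or 1671 cells in all, which were kept in the main fit and removed in an alternative. Alternatives were DESeq2 1.42.0, other filters, other gates and leaving out each library. Thinning drew 5000 UMIs per cell. Promoter sequences are from RefSeq on GRCm38.p6, not the build of the files, and no coordinates were joined between builds. The number of mice per library was not given in the sources used here, so p-values measure only the spread between these libraries.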

Additional observations from a re-analysis of the deposited data

Results flagged for a closer look

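The values of Cxcl13 had opposite signs in different sorted populations. The log2 ratio of Ccl19-positive over Ccl19-zero cells was -0.84 in the tdTomato-neg eGFP+ library, 1.00 in the tdTomato+ eGFP-neg library and 2.39 in the tdTomato-neg eGFP-neg library. The difference between libraries was not tested, since each population has 1 library. The negative value rests on 6 of 65 positive cells, and intervals over UMIs of so few cells do not fix its direction. At 5 and 7 markers the fitted log2 difference over the 3 libraries was 1.66 ± 0.20 and 1.78 ± 0.12.

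Ccl19 was also carried by gated cells outside the depth window that the comparison used, at shares above the 0.741% of cells with no gate marker. At least 2 Ccl19 UMIs were found in 13.9% of 2281 cells of the matrix gate with fewer than 5000 UMIs (median 2771 UMIs) and in 22.0% of 1270 such cells with more than 15000 UMIs (median 19093 UMIs). Ccl19 stood at 207 CPM in the former and at 60.3 CPM in the latter.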

How the results depend on the processing

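Against 437 genes higher and 365 lower, the counts were 276 and 142 with at least 7 markers (chosen after seeing the data), 180 and 170 with 7000 to 11000 UMIs, 127 and 113 without cells holding a cell cycle UMI, 208 and 197 in Xist-only cells, 66 and 57 in Y-only cells and 291 and 214 by DESeq2. With at most 2 mesothelial UMIs 332 were higher and 224 lower, and with no filter on low counts 621 and 752, which moved the share of higher calls to 45.2% from 54.5% and the median of all genes to -0.067. The smallest class in these fits held 19 cells, so fewer cells entered most of them, and how much of each change that makes was not tested. Leaving out 1 library gave 204 to 487 higher and 156 to 391 lower. Of 78 named genes called, 25 kept call and direction under all 17 alternatives that tested them, 50 lost the call in at least 1 and 3 changed sign in at least 1. The changes of sign were Il6 (-0.0682) and Col1a1 (0.0245) in Y-only cells, and Col3a1 with at least 5 (-0.0098) and 7 markers (-0.11), and the cause was not tested. The share of Ccl19-positive cells became 10.7%, 12.6%, 5.88% and 19.5% after thinning and 25.8%, 36.4%, 21.3% and 33.6% with at least 5 markers (tdTomato-neg eGFP+, tdTomato+ eGFP-neg, tdTomato+ eGFP+ and tdTomato-neg eGFP-neg). Every fit compared the classes within libraries, since library is a term of each. Small changes can be missed, since 10 of 50 simulated 1.5-fold changes were called. That simulation used a preset dispersion and few sums, so it cannot show how much of this is due to depth.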

Other observations

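The genes named here lie outside the lists and were chosen after their values were seen. Igf1, Aldh1a2, Hp, Lgals3, S100a4 and Adamts6 were called under every alternative that tested them. Igf1, which encodes insulin-like growth factor 1, stood at 2037, 2155 and 1939 CPM in Ccl19-positive cells against 643, 686 and 878 CPM in Ccl19-zero cells of the tdTomato-neg eGFP+, tdTomato+ eGFP-neg and tdTomato-neg eGFP-neg libraries (log2 difference 1.51 ± 0.10, edgeR adjusted p = 7.0e-05). Aldh1a2, the gene of a retinoic acid synthesizing enzyme, stood at 1132, 993 and 905 against 386, 311 and 406 CPM (1.48 ± 0.10, edgeR adjusted p = 8.5e-05). Hp, which encodes the hemoglobin-binding protein haptoglobin, stood at 3192, 1649 and 1653 against 1133, 615 and 713 CPM (1.4 ± 0.07, edgeR adjusted p = 1.2e-05). At 7 markers these differences were 0.77, 0.60 and 1.06.

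Of genes that were lower, Lgals3, the galectin-3 gene, stood at 57.5, 62.4 and 65.9 against 218, 195 and 185 CPM (-1.61 ± 0.11, edgeR adjusted p = 8.5e-05), and S100a4, a calcium-binding protein gene often used to mark fibroblasts, at 142, 221 and 169 against 544, 609 and 414 CPM (-1.50 ± 0.12, edgeR adjusted p = 0.00016). Adamts6, a secreted metalloproteinase gene, was lower by 1.65 on the log2 scale at the main gate and differed by -1.80 at 7 markers. The nuclear receptor genes Pparg and Nr1h3 were higher (1.66 ± 0.24 and 1.69 ± 0.18), and their calls were lost in Y-only cells, that of Pparg also without cells holding a cell cycle UMI.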
